A study of Homo sapiens with 15 samples.

Results

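Death receptors of the tumor necrosis factor family start cell death from the cell surface, and necroptosis is the lytic form of death that the same receptors can start when caspase-8 is held back. The genes described here are the receptor FAS, the ligand TNFSF10 (TRAIL), its receptors TNFRSF10A (TRAIL-R1) and TNFRSF10B (TRAIL-R2), the adaptor FADD, the initiator caspase CASP8, its inhibitory partner CFLAR (c-FLIP), the kinases RIPK1 and RIPK3, and the pseudokinase MLKL. They were chosen by name: a member is any probe cluster whose symbol in the array annotation is 1 of these 10. Of the 10 genes, 9 had a cluster, among 18377 genes measured. CFLAR had 2 clusters (8047381 and 8047401), which gave 10 member clusters among 28926. RIPK1 had no cluster under its name and is not analysed here.

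A bound death receptor gathers FADD, which brings in procaspase-8, and c-FLIP sits in the same complex and limits how far the caspase is activated. When caspase-8 is active it cuts RIPK1 and RIPK3. When it is not, RIPK3 that has been activated can phosphorylate MLKL, and phosphorylated MLKL then permeabilises the plasma membrane. In T cells FAS removes activated cells after an immune response, and TNFSF10 and MLKL are both known as genes that type I interferon can raise.

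MT-2 is an HTLV-1-transformed CD4+ T-cell line that carries the virus, so all 15 arrays came from 1 infected line and none from uninfected cells. The cells were kept for 48 h untreated, with ascorbic acid (AA) at 10 µg/ml (low dose), 50 µg/ml (intermediate dose) or 100 µg/ml (high dose), or with IFN-α2A at 1000 IU/ml. Each condition had 3 arrays, 1 from each of 3 experiments, and experiments 2 and 3 carry the same date in their titles. The labels do not say whether the experiments used separate cultures, so the p-values measure the spread between these arrays, which may be partly technical.

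All values below are log2 expression values as deposited, and a difference of 1 is a doubling of the signal. A probe cluster is the set of array probes summarised into 1 value. The array is a bulk measurement, in which fewer cells expressing a gene and less RNA per cell cannot be told apart. A cluster was called at an unadjusted p under 0.001 in limma, a cutoff taken from the methods, and the p adjusted by Benjamini-Hochberg over all 28926 clusters stands beside it.

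The cells were checked against marker genes. CD4, CD2 and CD7 lay above the array's median on all 15 arrays, as did IL2RA, CCR4, TNFRSF4, TNFRSF18 and FOXP3, which HTLV-1-transformed T cells are known for. CD3D, CD3E, CD3G, CD5, CD28 and TRAT1 lay below the median on all 15 arrays, and LCK lay above it on 13 of them. Of the 4 B-cell markers measured, MS4A1 was below the lower quartile on every array and CD79A, CD79B and PAX5 were above it on every array. Of the 5 monocyte markers LYZ and S100A12 were below the lower quartile on every array, CD14 and CSF1R were above it and FCN1 was above the median. Of the markers of cytotoxic and natural killer cells, NKG7 and NCAM1 were above the median on every array. CD8A, CD8B, KLRD1 and GNLY were below it on every array. Of 4 erythroid markers 2 were measured, HBB and ALAS2, and both lay between the lower quartile and the median on every array. None of the 32 marker genes measured was called in any treatment comparison. Of 12 interferon-response genes, 11 were measured, and all of them were higher with IFN-α, 10 by the call, with a median difference of 1.85. That list was chosen with earlier results of these data known, so it is not an independent check. The array of high-dose AA in experiment 3 stood apart, with a mean correlation of 0.976 with the other arrays against 0.991 to 0.995 for the rest. Fitted high-dose AA differences and slopes stated below that moved by over 1.5 times or changed sign without it are given both ways. Genes described only by their array values are not all given so.

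The sequences before the start of TNFSF10 and MLKL are shown because these were the genes whose levels differed most between conditions. They were taken from RefSeq (GRCh38.p14), read 5′ to 3′ on the gene's own strand. Capitals mark GAAANNGAAA on either strand (TTTCNNTTTC on the other), the repeated core of the interferon-stimulated response element, which interferon-activated transcription factors bind. The 250 bases before the start of TNFSF10 lie at chr3:172523431-172523680 on the minus strand and those of MLKL at chr16:74700863-74701112 on the minus strand.

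TNFSF10: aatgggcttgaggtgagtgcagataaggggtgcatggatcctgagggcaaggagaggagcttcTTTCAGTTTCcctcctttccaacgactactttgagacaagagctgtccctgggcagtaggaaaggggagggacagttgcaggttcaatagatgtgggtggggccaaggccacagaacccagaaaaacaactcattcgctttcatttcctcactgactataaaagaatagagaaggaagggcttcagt

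MLKL: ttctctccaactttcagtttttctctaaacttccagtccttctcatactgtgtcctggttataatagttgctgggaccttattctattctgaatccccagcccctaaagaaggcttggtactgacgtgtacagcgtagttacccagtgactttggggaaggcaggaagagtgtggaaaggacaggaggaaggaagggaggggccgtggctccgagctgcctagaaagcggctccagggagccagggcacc

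TNFSF10 held 1 match, TTTCAGTTTC, from 187 to 178 bases before the start, and MLKL held none in this window. Windows of 300 bases, 250 before and 50 after each start, were listed for 7 of the 10 genes, and at least 1 window of 3 of them (TNFSF10, CASP8 and RIPK1) held the letters. FAS, FADD and CFLAR had no match in any of their windows. TNFRSF10A, TNFRSF10B and RIPK3 had no entry. The letters were found in 3.57% of all 35116 windows, in 4.38% of the 27305 genes with a window and in 5 of the 8 interferon-response genes with one. The match of CASP8 spanned the start of 1 of its windows, and its other windows held none. The matches of 2 other pathway genes described below, EIF2AK2 and RBCK1, also lay within a few bases of a start. Each is shown with 10 bases on either side, at chr2:201233450-201233479 on the plus strand for CASP8, at chr2:37156967-37156996 on the minus strand for EIF2AK2 and at chr20:408291-408320 on the plus strand for RBCK1.

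CASP8: gagtttttggTTTCTGTTTCaccttgtgtc

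EIF2AK2: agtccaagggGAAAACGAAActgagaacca

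RBCK1: gggccgccacTTTCACTTTCtcttccgccg

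The first question was which of these genes IFN-α moved. MLKL, the executor of necroptosis, and TNFSF10, the TRAIL ligand, stood higher with IFN-α than in untreated cells, by 0.56 and 0.30. In the model without a block neither reached the call, and with the experiment as a random block MLKL did. None of the 10 member clusters was called in this comparison, in which 0.28% of all clusters were. At an unadjusted p under 0.05 there were 2 member clusters, MLKL and TNFSF10, where 1.39% of all clusters passed. FAS and the other members differed by at most 0.14 in either direction. The plot of member values shows each array.

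**Figure D1:**
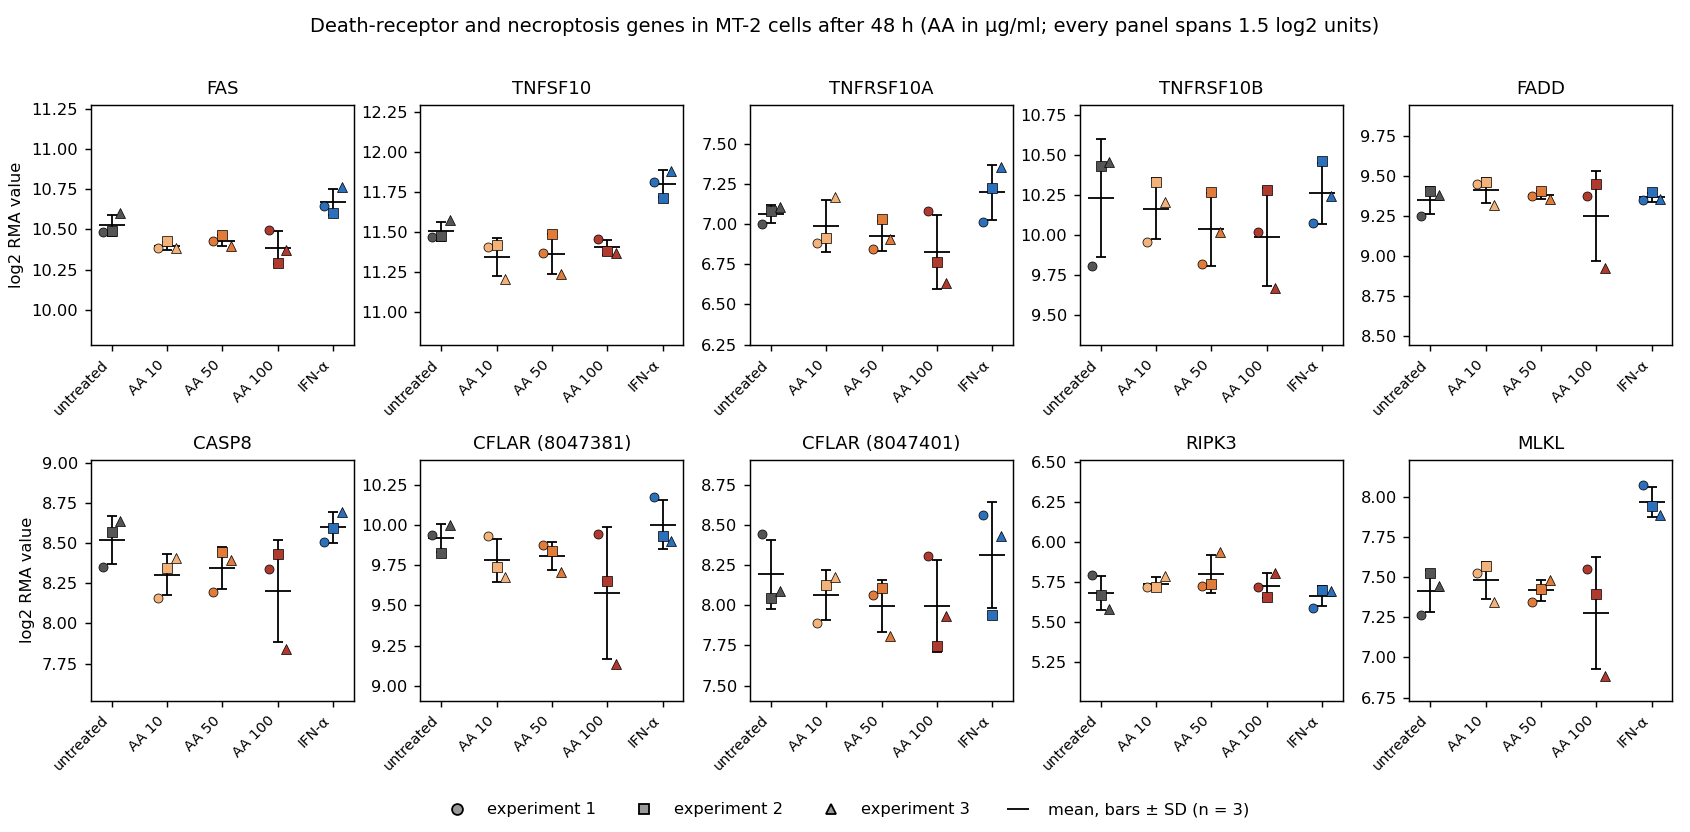
Log2 value of each of the 10 member clusters (vertical axis) on each array by condition (horizontal axis, AA dose in µg/ml). Symbols mark experiments 1 to 3, and horizontal lines with bars are the mean ± SD of 3 arrays. The 3 IFN-α arrays lie above all 12 others for MLKL, TNFSF10 and, by 0.0013, FAS, and the array of high-dose AA in experiment 3 is the lowest of all 15 for TNFRSF10A, TNFRSF10B, FADD, CASP8, CFLAR 8047381 and MLKL.

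MLKL was 7.27, 7.53 and 7.45 in the untreated arrays of experiments 1, 2 and 3, and 8.08, 7.95 and 7.89 in their IFN-α arrays. The groups did not overlap, and the lowest IFN-α array lay 0.32 above the highest of the 12 other arrays. Within experiments 1, 2 and 3 the difference was 0.81, 0.42 and 0.44. The fitted difference was 0.56 (SE 0.139, 95% interval 0.26 to 0.85), a 1.47-fold higher signal, with an unadjusted p of 0.0013 and an adjusted p of 0.436. The unadjusted p was 0.0011 with the experiment as a fixed block, and 0.000729 with it as a random block, which passed the call. It also passed the call without the array that stood apart, which takes no part in this difference but does in the estimate of the spread, at an unadjusted p of 2.49e-05 and an adjusted p of 0.0111.

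TNFSF10 was 11.47, 11.48 and 11.57 in untreated cells and 11.81, 11.72 and 11.88 with IFN-α. The groups did not overlap here either, and the gap to the highest of the 12 other arrays was 0.14. The difference was 0.34, 0.24 and 0.31 within experiments 1, 2 and 3. The fit gave 0.30 (SE 0.0851, 95% interval 0.11 to 0.48), a 1.23-fold higher signal, with an unadjusted p of 0.0036 and an adjusted p of 0.986.

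FAS, the receptor, was 10.49, 10.49 and 10.60 in untreated cells and 10.64, 10.60 and 10.76 with IFN-α. The lowest IFN-α array exceeded the highest untreated array by 0.0013, far less than the spread within either group. The difference was 0.14 (SE 0.0742, 95% interval -0.02 to 0.30), with an unadjusted p of 0.0725. MLKL, TNFSF10 and FAS were the 3 member clusters whose IFN-α arrays all lay above the untreated arrays, where 2.62% of all clusters did, and they were also the 3 whose IFN-α arrays lay above all 12 others, where 0.75% did. No member had IFN-α arrays below all untreated arrays.

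The TRAIL receptors did not separate IFN-α from untreated cells. TNFRSF10A was 7.0, 7.08 and 7.11 untreated and 7.01, 7.23 and 7.36 with IFN-α, a difference of 0.14 (95% interval -0.12 to 0.40). TNFRSF10B was 9.81, 10.43 and 10.45 untreated and 10.08, 10.46 and 10.24 with IFN-α, and its 95% interval ran from -0.38 to 0.44. The untreated arrays of TNFRSF10B had the widest spread of the members (SD 0.367), with experiment 1 low. Experiment 1 was also its lowest array at low-dose AA (9.96), at intermediate-dose AA (9.82) and with IFN-α.

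Adaptor, caspase and inhibitor overlapped between IFN-α and untreated cells. FADD differed by 0.02 (95% interval -0.22 to 0.26) and CASP8 by 0.08 (95% interval -0.22 to 0.38). CFLAR differed by 0.08 (95% interval -0.26 to 0.42) in cluster 8047381 and by 0.12 (95% interval -0.26 to 0.50) in cluster 8047401. RIPK3, which was between the lower quartile and the median of the array on all 15 arrays, ranged from 5.58 to 5.94 over all of them. RIPK3 differed by -0.02 (95% interval -0.20 to 0.16) with IFN-α. Over the 10 member clusters 9 were higher with IFN-α and the median difference was 0.10, beside -0.008 over all clusters, of which 45.7% were higher.

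**Figure D2:**
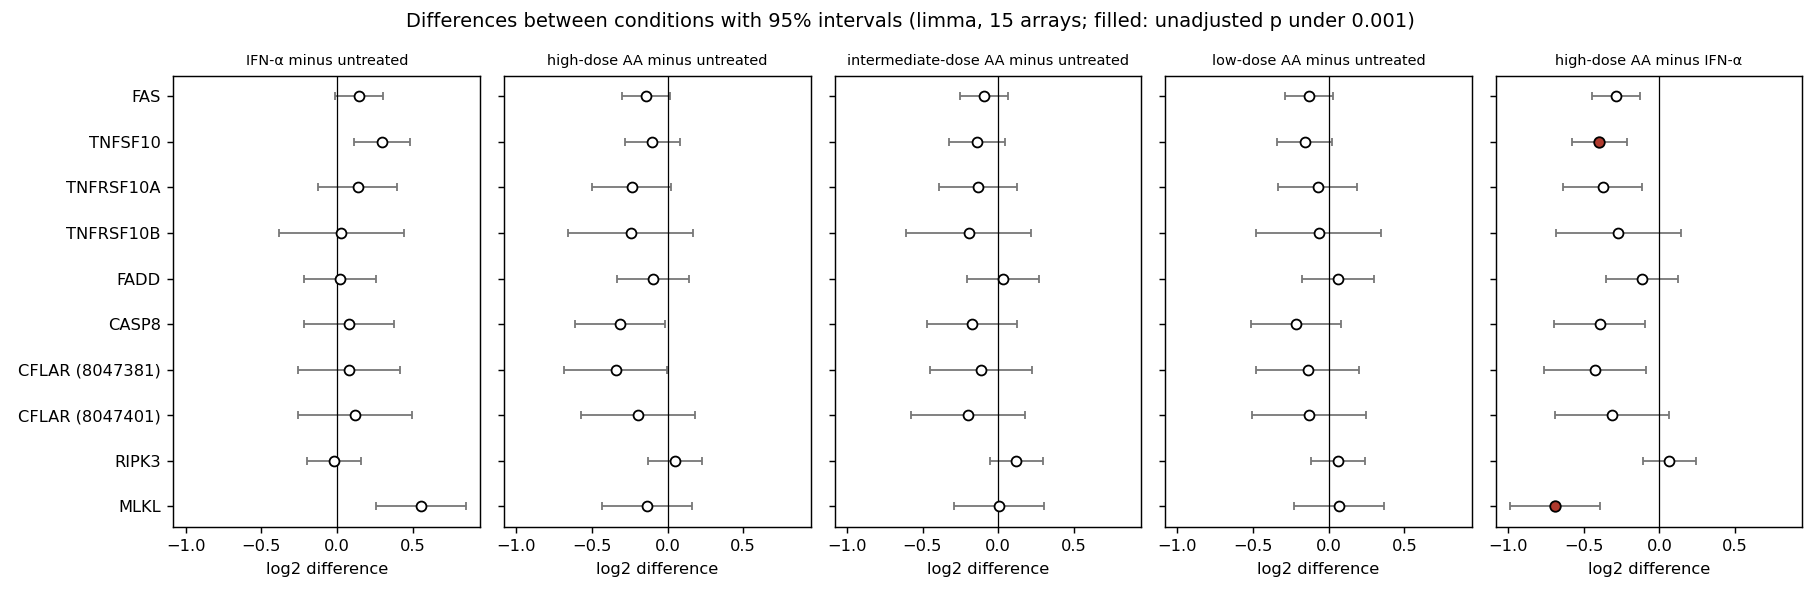
Log2 difference between conditions (horizontal axis) for each member cluster (vertical axis) in 5 comparisons, with 95% intervals from 1 limma model over 15 arrays. Filled points have an unadjusted p under 0.001, and there are 2 of them, MLKL at -0.69 and TNFSF10 at -0.40, both in high-dose AA minus IFN-α.

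The next question was whether AA moved the same genes. At the high dose no member cluster was called, where 0.259% of all clusters were. CASP8 and CFLAR 8047381 were lower than in untreated cells by 0.32 and 0.34 at unadjusted p-values of 0.0392 and 0.0465, a level that 11% of all clusters passed in this comparison. These values rested on the array that stood apart. The 4 comparisons with untreated cells share the 3 untreated arrays.

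CASP8, the initiator caspase, was 8.35, 8.57 and 8.64 in untreated cells and 8.34, 8.43 and 7.84 at high-dose AA. Within experiments 1, 2 and 3 the difference was -0.01, -0.14 and -0.80, so experiment 3 carried most of it. The fit gave -0.32 (SE 0.139, 95% interval -0.61 to -0.02, adjusted p = 0.445), and without the array that stood apart it gave -0.13 (95% interval -0.37 to 0.10, unadjusted p = 0.24).

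CFLAR 8047381 was 9.94, 9.83 and 10.00 in untreated cells and 9.95, 9.65 and 9.14 at high-dose AA, with differences of 0.01, -0.18 and -0.86 within the experiments. The fit gave -0.34 (SE 0.157, 95% interval -0.68 to -0.01, adjusted p = 0.452), and -0.12 (95% interval -0.37 to 0.12) without the array that stood apart. The other CFLAR cluster was 8.44, 8.05 and 8.09 untreated and 8.31, 7.75 and 7.94 at high-dose AA, and differed by -0.20 (95% interval -0.57 to 0.18), or -0.16 without that array.

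MLKL overlapped between untreated and high-dose AA. Its values at high-dose AA were 7.55, 7.40 and 6.89 in experiments 1, 2 and 3, against 7.27, 7.53 and 7.45 untreated. The direction therefore differed between experiments, from 0.28 in experiment 1 to -0.56 in experiment 3. The fit gave -0.14 (95% interval -0.43 to 0.16), and 0.06 (95% interval -0.15 to 0.27) without the array that stood apart.

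TNFSF10 was the member cluster whose 3 high-dose AA arrays, at 11.46, 11.39 and 11.37, all lay below the 3 untreated arrays, as 3.66% of all clusters did. The difference of -0.10 (95% interval -0.28 to 0.08) did not pass the test. FAS was 10.49, 10.29 and 10.37, a difference of -0.14 (95% interval -0.30 to 0.02). TNFRSF10A was 7.08, 6.76 and 6.63, a difference of -0.24 (95% interval -0.50 to 0.02), or -0.14 (95% interval -0.40 to 0.12) without the array that stood apart. Without that array FAS and TNFSF10 differed by -0.13 and -0.08.

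Of the remaining members, TNFRSF10B was 10.02, 10.28 and 9.67 and differed by -0.24 (95% interval -0.66 to 0.17), or -0.08 (95% interval -0.50 to 0.34) without the array that stood apart. Its unadjusted p in the limma fit over all arrays was 0.228, and 0.0931 with the experiment as a fixed block. FADD was 9.37, 9.45 and 8.93 and differed by -0.10 (95% interval -0.34 to 0.14), which turned to 0.06 (95% interval -0.10 to 0.22) without that array. RIPK3 was 5.72, 5.66 and 5.81 and differed by 0.05 (95% interval -0.13 to 0.22), or 0.0069 without it. Over the member clusters 9 of 10 were lower, with a median of -0.17, where 45.6% of all clusters were lower. Without the array that stood apart 7 were lower and the median was -0.10.

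The member differences at high-dose AA went with the experiment. Their median was 0.008 in experiment 1, -0.14 in experiment 2 and -0.46 in experiment 3. The 25% of clusters with the highest mean, which hold 6 member clusters, had medians of 0.078, -0.014 and -0.186 in the same experiments. These had the same signs as the member medians but were smaller in size in experiments 2 and 3. The next 25% by mean, which hold 3 member clusters, had medians of -0.017, 0.0055 and -0.096. The part of signal brightness in the members' differences was not tested.

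**Figure D3:**
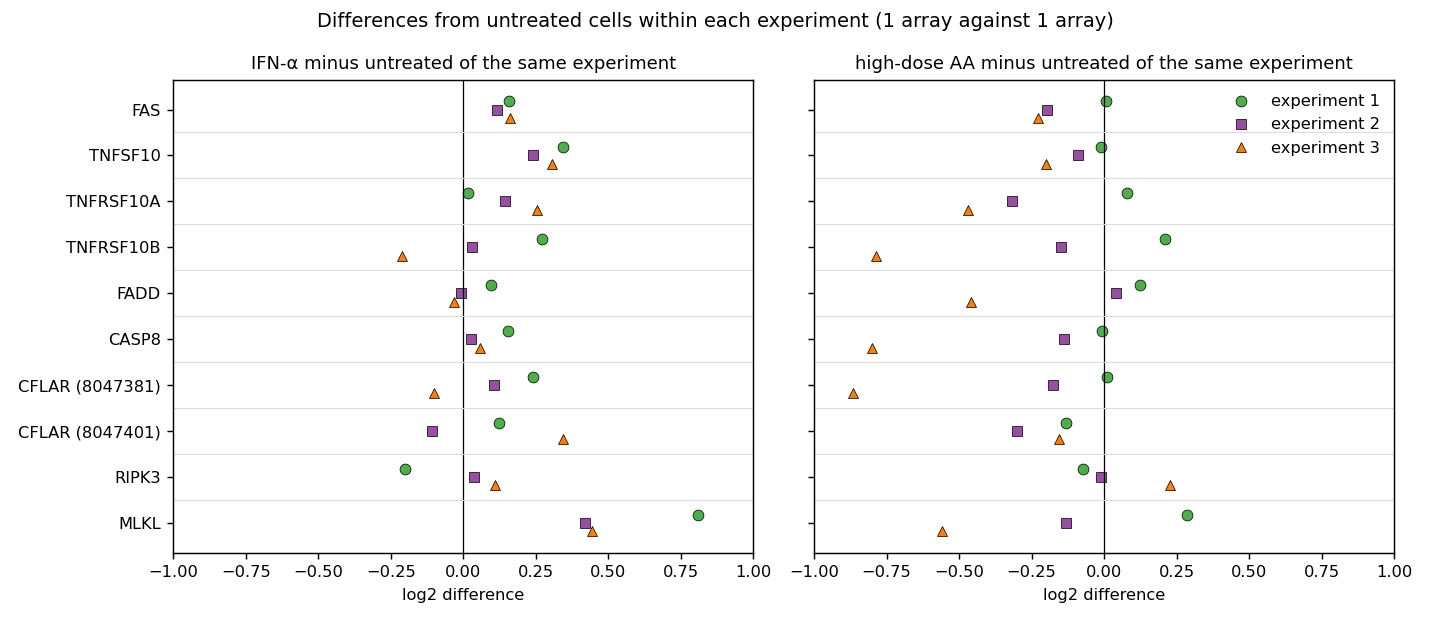
Log2 difference from the untreated array of the same experiment (horizontal axis) for each member cluster (vertical axis), with IFN-α on the left and high-dose AA on the right; each point is 1 array minus 1 array. For IFN-α the 3 experiments all lie to the right of 0 for MLKL, TNFSF10, FAS, TNFRSF10A and CASP8, as for 9.47% of all clusters. For high-dose AA experiment 3 lies farthest left for 8 of the 10 clusters, down to -0.86 for CFLAR 8047381.

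At the intermediate and low doses no member cluster was called, where 0.0311% and 0.0207% of all clusters were. The member medians were -0.12 and -0.10, and 7 of 10 clusters were lower at each dose, where 47.4% and 47.7% of all clusters were. FAS, at 10.43, 10.46 and 10.40 with the intermediate dose and 10.38, 10.43 and 10.38 with the low dose, lay below all untreated arrays at both, as 4.67% and 4.88% of all clusters did. Its differences were -0.10 (95% interval -0.26 to 0.06) and -0.13 (95% interval -0.29 to 0.03). TNFSF10 lay below all untreated arrays at the low dose, with 11.41, 11.42 and 11.21, but not at the intermediate dose, with 11.37, 11.49 and 11.24.

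TNFSF10 differed by -0.14 (95% interval -0.32 to 0.04) at the intermediate dose and by -0.16 (95% interval -0.34 to 0.02) at the low dose. CASP8 was 8.16, 8.35 and 8.41 at the low dose and 8.20, 8.45 and 8.40 at the intermediate dose, differences of -0.22 (95% interval -0.51 to 0.08) and -0.17 (95% interval -0.47 to 0.12). CASP8 was the member lower than the untreated array of its own experiment on all 9 AA arrays, as were 3.07% of all clusters. FAS and TNFSF10 were lower on 8 of the 9, and 8.84% of all clusters were lower on at least 8. MLKL differed by 0.004 (95% interval -0.29 to 0.30) at the intermediate dose and 0.07 (95% interval -0.23 to 0.36) at the low dose. The remaining members differed by between -0.20 and 0.12 at these doses.

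Across the 12 arrays without IFN-α, the slope on AA dose was called for no member cluster, where 0.245% of all clusters were called. The slope is given as log2 change over the range from 0 to 100 µg/ml. TNFRSF10A had the smallest p without a block, with a slope of -0.22 (SE 0.0983, 95% interval -0.43 to -0.004, adjusted p = 0.433). With the experiment as a fixed block its unadjusted limma p was 0.0600, and CFLAR 8047381 had the smallest, at 0.0354. CFLAR 8047381 had a slope of -0.28 (95% interval -0.58 to 0.02), CASP8 -0.23 (95% interval -0.51 to 0.05), MLKL -0.16 (95% interval -0.43 to 0.10) and TNFSF10 -0.04 (95% interval -0.22 to 0.14). Without the array that stood apart the slopes were -0.13 (95% interval -0.34 to 0.08) for TNFRSF10A, -0.08 (95% interval -0.29 to 0.14) for CFLAR 8047381, -0.07 for CASP8 and 0.02 for MLKL. Over all arrays and experiments left out in turn the slope ran from -0.38 to -0.06 for TNFRSF10A and from -0.44 to -0.06 for CFLAR 8047381.

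Set directly against each other, high-dose AA and IFN-α gave 2 called member clusters, both lower with AA, where 0.65% of all clusters were called. They were MLKL and TNFSF10. MLKL differed by -0.69 (SE 0.139, 95% interval -0.99 to -0.39), with an unadjusted p of 0.000201 and an adjusted p of 0.0586, or 0.0381 with the experiment as a block. Within experiments 1, 2 and 3 it differed by -0.52, -0.55 and -1.003. The call remained without the array that stood apart, at -0.50 (95% interval -0.71 to -0.28) and an unadjusted p of 0.000219, but was lost when the 6 arrays of these conditions were fitted alone (unadjusted p = 0.005). It was also lost without the IFN-α array of experiment 1 (-0.64, unadjusted p = 0.0014), without experiment 1 (-0.78, unadjusted p = 0.0011) and without experiment 2 (-0.76, unadjusted p = 0.0051).

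TNFSF10 differed by -0.40 (SE 0.0851, 95% interval -0.58 to -0.21), with an unadjusted p of 0.00037 and an adjusted p of 0.0877. Within the experiments it differed by -0.35, -0.33 and -0.51. Without the array that stood apart the difference of -0.38 had an unadjusted p of 0.0011 and was no longer called. The call was also lost when the 6 arrays of these conditions were fitted alone (unadjusted p = 0.0043), without the high-dose AA array of experiment 2, without the IFN-α array of experiment 1 or 3, and without any 1 experiment, with differences of -0.34 to -0.43 and unadjusted p-values of up to 0.0074.

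In the same comparison FAS differed by -0.28 (SE 0.0742, unadjusted p = 0.0018, adjusted p = 0.197) and TNFRSF10A by -0.37 (SE 0.122, adjusted p = 0.317). CASP8 differed by -0.40 (SE 0.139, adjusted p = 0.326) and CFLAR 8047381 by -0.43 (SE 0.157, adjusted p = 0.347). Without the array that stood apart these 4 differences were -0.28, -0.28 (unadjusted p = 0.0406), -0.21 (unadjusted p = 0.0715) and -0.20 (unadjusted p = 0.0972). FAS, TNFSF10, CASP8 and MLKL had all high-dose AA arrays below all IFN-α arrays, as 3.74% of all clusters did. FADD, TNFRSF10B, RIPK3 and CFLAR 8047401 differed by -0.12, -0.27, 0.07 and -0.31, and all of their 95% intervals held 0. Without that array they differed by 0.05, -0.11, 0.03 and -0.28.

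Tested for any difference among the 5 conditions, TNFSF10 was the member called (F = 9.75, unadjusted p = 0.000565, adjusted p = 0.176), where 0.363% of all clusters were called. No member was called in this test without the untreated array of experiment 2, the intermediate-dose AA array of experiment 1, the high-dose AA array of experiment 2, any 1 IFN-α array or any 1 experiment. MLKL had an unadjusted p of 0.0021 and FAS of 0.0094. In order of mean, MLKL stood at 7.97 ± 0.09 (SD, n = 3) with IFN-α, 7.48 ± 0.12 with low-dose AA, 7.42 ± 0.07 with the intermediate dose, 7.41 ± 0.13 untreated and 7.28 ± 0.35 with the high dose, and the last 4 overlapped. TNFSF10 stood at 11.80 ± 0.08 (SD, n = 3) with IFN-α, 11.51 ± 0.06 untreated, 11.41 ± 0.05 with high-dose AA, 11.37 ± 0.12 with the intermediate dose and 11.35 ± 0.12 with the low dose. The 3 AA doses of TNFSF10 overlapped each other, and untreated and high-dose arrays were apart by less than their spread. FAS stood at 10.67 ± 0.08 (SD, n = 3) with IFN-α, 10.53 ± 0.07 untreated, 10.43 ± 0.03 with intermediate-dose AA, 10.40 ± 0.02 with the low dose and 10.39 ± 0.10 with the high dose, and its AA doses overlapped each other.

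The other genes of the pathway were followed as a list of 59, of which 53 were measured. With IFN-α 2 of them, EIF2AK2 and RBCK1, were called higher and 0 lower, where 0.28% of all clusters were called. With AA 0 were called at any of the 3 doses. Of all clusters 0.259% were called at the high dose, 0.0311% at the intermediate dose and 0.0207% at the low dose. The median over the 53 was 0.012 with IFN-α and -0.06 with high-dose AA, or -0.0080 without the array that stood apart.

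EIF2AK2 encodes PKR, a kinase that binds double-stranded RNA and is a known interferon-induced gene. It was 8.60, 8.50 and 8.52 in untreated cells, 8.75, 8.43 and 8.06 with high-dose AA and 10.74, 10.70 and 10.90 with IFN-α. Its mean was 8.54 untreated and 8.41 with high-dose AA. Without the array that stood apart this difference was 0.05 (95% interval -0.17 to 0.27). IFN-α raised it by 2.24 (SE 0.133, 95% interval 1.96 to 2.53, adjusted p = 2.29e-07), a 4.72-fold higher signal, and it was lower with high-dose AA than with IFN-α by a fitted difference of -2.37. The necroptosis inputs and regulators on the list numbered 14, all measured, and EIF2AK2 was the 1 called in a treatment comparison. PELI1, a ubiquitin ligase, and SIGLEC9, a cell-surface lectin, were the next by the test over all conditions, with no call.

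RBCK1 encodes HOIL-1, a subunit of the ligase complex that builds linear ubiquitin chains on the receptor complex. It was 8.44, 8.51 and 8.38 in untreated cells and 9.05, 8.90 and 8.81 with IFN-α, with no overlap. It rose by 0.47 (SE 0.113, 95% interval 0.23 to 0.72), with an unadjusted p of 0.000886 and an adjusted p of 0.317, or 0.0144 with the experiment as a block. The call was lost without any 1 of these 6 arrays and without experiment 1 or 2, with differences of 0.41 to 0.53 and unadjusted p-values of up to 0.0151. RNF31, the catalytic subunit of the same complex, was 8.40, 8.44 and 8.45 untreated and 8.64, 8.65 and 8.54 with IFN-α in cluster 7973584. These groups did not overlap either, but the p was above the call, and cluster 7973613 of RNF31 overlapped, with 6.64, 6.72 and 6.80 untreated and 6.50, 6.83 and 6.67 with IFN-α. Of the 20 genes for ubiquitin and kinase control of RIPK1, 17 were measured, and RBCK1 was the 1 called with IFN-α.

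BIRC2 encodes cIAP1, a ubiquitin ligase that modifies RIPK1. It was 9.74, 9.92 and 10.00 untreated, 9.84, 9.79 and 9.74 at the low dose, 9.54, 9.80 and 9.69 at the intermediate dose and 9.55, 9.62 and 9.30 at the high dose of AA. The arrays of the high dose all lay below the untreated arrays, as 3.66% of all clusters did. Its slope on AA dose was -0.37 (SE 0.0883, 95% interval -0.56 to -0.18), with an unadjusted p of 0.000959 and an adjusted p of 0.385, and this was the single pathway gene with a called slope. The call was lost without 10 of the 12 arrays in turn (the untreated array of experiment 1 and the high-dose array of experiment 2 were the exceptions) and without any 1 experiment, with slopes of -0.43 to -0.25, and without the array that stood apart the slope was -0.29 (unadjusted p = 0.0049). With 3 arrays against 3 it differed by -0.40 (95% interval -0.61 to -0.18, adjusted p = 0.401) at the high dose, or by -0.30 (95% interval -0.51 to -0.09) without that array. Of the 17 genes measured in this group 13 were lower at the high dose, with a median of -0.14, beside 45.6% of all clusters. Without the array that stood apart 10 were lower and the median was -0.029.

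**Figure D4:**
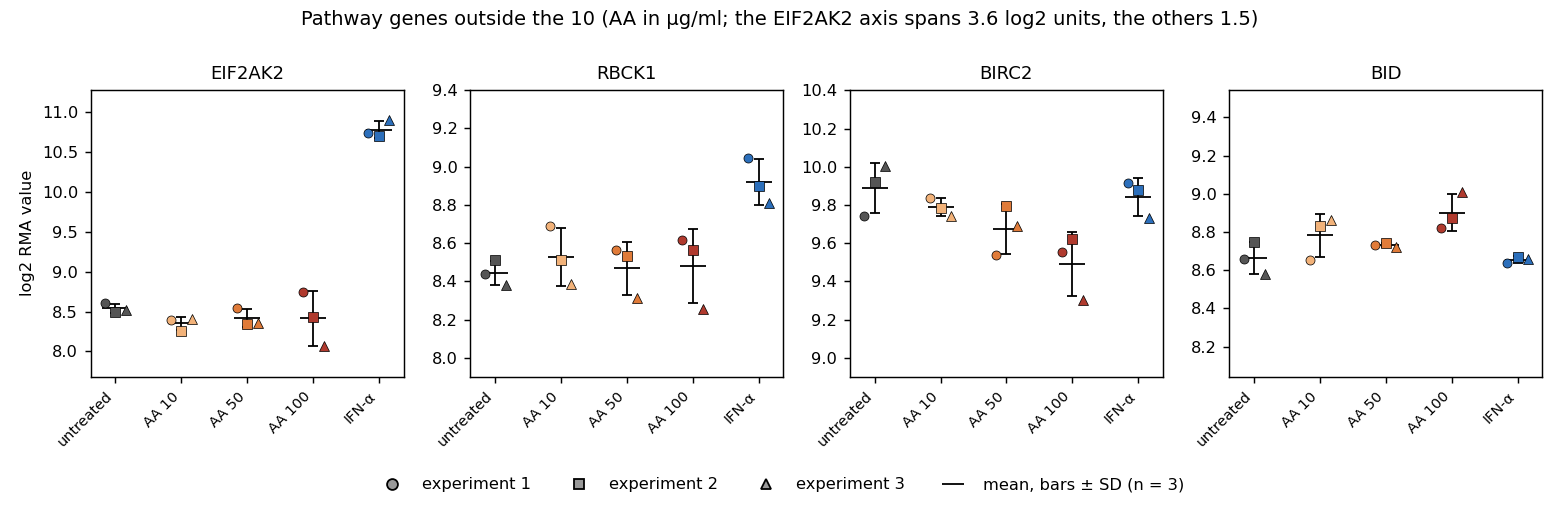
Log2 value (vertical axis) on each array by condition (horizontal axis, AA dose in µg/ml) for 4 pathway genes outside the 10, with symbols for experiments and mean ± SD bars of 3 arrays. EIF2AK2 and RBCK1 stand higher on all 3 IFN-α arrays, whereas BIRC2 is lowest and BID highest at the high dose of AA.

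Among adaptors and caspase partners 11 of 12 were measured and none was called in a treatment comparison. BID, which caspase-8 cuts to pass the death signal to mitochondria, was 8.66, 8.75 and 8.58 untreated and 8.82, 8.87 and 9.01 with high-dose AA. These arrays did not overlap, as 6.86% of all clusters did not in this direction, and the difference was 0.24 (SE 0.0778, 95% interval 0.07 to 0.40, adjusted p = 0.422), or 0.18 (95% interval 0.02 to 0.35) without the array that stood apart. TRADD, the adaptor of the TNF receptor, was 8.58, 8.66 and 7.80 with high-dose AA against 8.52, 8.73 and 8.81 untreated, so that experiment 3 alone was low. Without that array TRADD differed by -0.06 (95% interval -0.28 to 0.15). TRAF5, a signalling adaptor, was 6.84, 6.75 and 6.74 untreated and 6.79, 6.50 and 6.79 with high-dose AA.

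Among the other ligands and receptors of the family 11 of 13 were measured and none was called in a treatment comparison. LTA, the lymphotoxin ligand, had 3 clusters, and that with the highest mean was 12.97, 13.01 and 13.03 untreated and 12.95, 12.95 and 12.61 with IFN-α. In all 3 clusters the IFN-α arrays lay below all untreated arrays, as 2.93% of all clusters did. In the cluster with the highest mean, the highest IFN-α array was 12.951 and the lowest untreated array 12.972. TNFRSF10D, a TRAIL receptor that lacks a working death domain, was 8.96, 9.13 and 9.20 untreated, 9.17, 8.96 and 8.25 with high-dose AA and 8.92, 8.80 and 8.53 with IFN-α. Its mean was 9.10 untreated and 8.80 with high-dose AA. Without the array that stood apart this difference was -0.03 (95% interval -0.34 to 0.28). Its 3 IFN-α arrays lay below all untreated arrays, as 2.93% of all clusters did. The death receptor TNFRSF25 was 7.98, 7.95 and 7.88 untreated and 7.66, 7.99 and 7.81 with IFN-α, with overlap.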

How the data were processed

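RNA of MT-2 cells was hybridised to Affymetrix Human Gene 1.0 ST arrays, 1 per sample. The authors deposited background-corrected, normalised and summarised log2 values (RMA, xps package), 1 row per probe cluster; the genome build behind the clusters is not given in the sources used here. Genes were named from the platform annotation, in which 19310 clusters had 1 symbol, 1752 several and 7864 none; only the first were named. Conditions and experiment tags came from the labels.

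One model over the 5 conditions and 15 arrays was fitted to all 28926 clusters with limma 3.58.1 in R 4.3.3, without a block, which the methods of the study do not mention; the slope used the 12 arrays without IFN-α. At the call threshold about 28.9 clusters pass by chance per comparison. The number of arrays limits the precision. Same-numbered arrays of different conditions deviated together only in part (median correlation of deviations 0.281, range -0.194 to 0.536 over 30 pairs, against a median of -0.172 over 60 pairs with different numbers). The members, the pathway, marker and interferon lists and the rules were chosen with earlier results of these data known. All members are named; pathway genes are named if called in a treatment comparison, otherwise up to 3 per role by the test over conditions, and BIRC2 also for its slope. Pathway counts use each gene's cluster of highest mean; TNF's 3 clusters hold identical values. Genes alike in pattern were to be named for members with an adjusted p under 0.05 over the conditions, which none had. The model was tested on simulated data with independent errors. Those data had no shared experiment effect and no array that stood apart, so the test does not cover these. Letters before gene starts came from RefSeq (GRCh38.p14).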

Additional observations from a re-analysis of the deposited data

How the results depend on the processing

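The number of member clusters called depended on the processing. For IFN-α against untreated it was 0, and 1 with a random replicate block, with array weights, with cyclic loess or with a fit of only the arrays compared, and 2 at an unadjusted p under 0.01. For high-dose AA against IFN-α it was 2, and 6 with array weights, 4 at an unadjusted p under 0.01, 0 with a fit of only the arrays compared and 0 at an adjusted p under 0.05. For high-dose AA against untreated it was 0, and 2 with array weights. For any difference among the conditions it was 1, and 5 with array weights, 2 with cyclic loess, 3 at an unadjusted p under 0.01 and 0 at an adjusted p under 0.05. Leaving out 1 array or 1 experiment gave 0 to 1 for IFN-α against untreated (1 without high-dose AA of experiment 3 or without replicate 3), 0 to 5 for high-dose AA against IFN-α (5 without high-dose AA of experiment 1, 0 without IFN-α of experiment 1 or without replicate 2) and 0 to 2 for any difference. The fixed replicate block left these counts at 0, 2, 0 and 1, and at 0 for the intermediate dose, the low dose and the slope. The array weights did not reach convergence, and with them 2089 of all clusters were called for high-dose AA against untreated, beside 75. The causes of these changes were not tested.

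MLKL ran from 0.43 to 0.63 for IFN-α and from -0.83 to -0.50 for high-dose AA against IFN-α when arrays or experiments were left out, and TNFSF10 from 0.26 to 0.34 and from -0.44 to -0.34. Some differences that were not called changed sign. With array weights these were FADD (-0.0067), TNFRSF10B (-0.065) and RIPK3 (0.017) for IFN-α against untreated, FADD at the high dose (0.073), MLKL at the intermediate dose (-0.044), FADD (0.080), TNFRSF10B (0.0042) and RIPK3 (-0.013) for high-dose AA against IFN-α, and the slope of FADD (0.0062). With cyclic loess RIPK3 turned at the high dose (-0.038), against IFN-α (-0.026) and in slope (-0.033). Other ranges crossed 0 when 1 array or experiment was left out. For IFN-α against untreated, FADD ran from -0.029 to 0.049, TNFRSF10B from -0.18 to 0.15, CASP8 from -0.0057 to 0.14, CFLAR 8047381 from -0.0050 to 0.17, CFLAR 8047401 from -0.0069 to 0.31 and RIPK3 from -0.083 to 0.073. For high-dose AA against untreated, FADD ran from -0.21 to 0.082, TNFRSF10B from -0.47 to 0.030, RIPK3 from -0.042 to 0.11 and MLKL from -0.35 to 0.076. For intermediate-dose AA against untreated, FADD ran from -0.018 to 0.061 and MLKL from -0.070 to 0.061. For low-dose AA against untreated, FADD ran from -0.0052 to 0.13, TNFRSF10B from -0.28 to 0.047, CFLAR 8047401 from -0.24 to 0.084, RIPK3 from -0.013 to 0.13 and MLKL from -0.030 to 0.15. For high-dose AA against IFN-α, FADD ran from -0.22 to 0.045. For the slope on AA dose, FADD ran from -0.20 to 0.035, TNFRSF10B from -0.42 to 0.0037, CASP8 from -0.37 to 0.0059, RIPK3 from -0.035 to 0.082 and MLKL from -0.33 to 0.022.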
